A study of Mus musculus with 48 samples.

Results

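AC170222, a cholecystokinin (CCK) receptor agonist, was compared with saline in RNA on ribosomes carrying phosphorylated ribosomal protein S6 (pS6) in the dorsal vagal complex (DVC). The libraries were chosen by their labels: the 3 DVC immunoprecipitates (IP) of AC170222-treated mice (wells H01, H02 and H03) and the 3 of saline-treated mice (wells G01, G02 and G03), 6 of 48 libraries in the series. All were from male C57/Bl6 mice, 9 weeks old, on standard chow, fasted for 6 h before an intraperitoneal injection of 10 µL per g. The AC170222 dose was 2.5 µg/kg, but the labels also write the drug as AC710222 and give 2.5 or 10 µg/kg for that spelling, so the dose is uncertain. The other DVC groups, used only for contrast, received AC3174 (a GLP-1 receptor agonist) at 1 µg/kg or a combination whose doses the labels do not give, and each also has 3 IP and 3 total RNA (input) libraries. The labels used here do not say how long after injection tissue was taken, how many mice went into a library or whether replicates were separate animals. The p values therefore measure only the spread between these libraries.

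CCK is released from the gut after a meal and acts on vagal afferents, whose fibres end in the nucleus of the solitary tract within the DVC, where satiety and visceral reflexes are set. Neurons that are excited phosphorylate S6 through the mTOR and MAP kinase pathways, so an antibody against pS6 (serines 240 and 244 here) pulls down ribosomes, and the mRNA on them, preferentially from recently active cells. A level in such an IP depends on how many cells carry pS6, which cells those are and how much of an mRNA each holds on its ribosomes. In bulk samples these, fewer cells of a type and less RNA per cell, cannot be told apart.

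The 6 IP libraries held 108539080 to 191252522 counts, and 12652 to 15857 genes had a count. Among hindbrain markers, Hoxb3, Hoxb4, Hoxa5 and the acetylcholine-synthesis gene Chat were counted in all 6. Of 13 hypothalamic genes in the table, 5 were at 0 in all 6, 1 (Lhx1) was counted in all 6, and the summed level was 4.50 to 22.4 CPM. Others were counted in some libraries, such as Agrp at 0.983 and 0.944 CPM in AC170222 2 and 3. The noradrenaline-synthesis gene Dbh was counted in 1 library of each group. Saline 3 stood apart. Its correlation with the other 5 in log2(CPM + 1) over 7235 genes was 0.488 to 0.521, against 0.751 to 0.881 among those 5. It also lacked 16.5% of 9864 genes counted in every input, against 2.13% to 6.69% in the others. The summed level of 12 choroid plexus and meningeal genes was 2727 CPM (counts scaled to library totals of 1e6) in saline 3 and 65.4 to 318 in the rest. In input these genes were also highest in saline 3, at 2241 CPM against 391 to 650 in the other 5. Saline 3 and AC170222 3, which came from the same pair of plate columns (called a library set here), had 1699.5 and 1694 CPM of mitochondrially encoded mRNA against 9.33 to 315, and 2266 and 2425 CPM of nuclear-retained RNA against 229 to 796. Some of the results that rest on these 2 libraries are given with and without them below.

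A gene absent from one library can differ between groups through loss of transcripts alone. The comparison was therefore read first in the 9585 genes counted in all 6 libraries, of which 9214 passed the filter on low counts. No gene was called by edgeR's quasi-likelihood test at an adjusted p under 0.05 (0% of 9214), and the smallest adjusted p was 0.999. At an unadjusted p under 0.05 there were 225 genes (2.44%), 110 higher and 115 lower with AC170222. DESeq2 called 78 (52 higher and 26 lower), and limma-voom called 0 (327 at an unadjusted p under 0.05). Of the 78, 45 had fewer than 10 counts in at least 1 library. The 3 AC170222 values lay wholly above the 3 saline values for 439 genes (4.76%) and wholly below for 396 (4.30%), together 9.06%. The biological coefficient of variation was 0.893, and the median standard error of a log2 difference was 0.77. For the 2059 genes between 100 and 1000 CPM the median standard error was 0.41.

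Subunits of the mitochondrial electron transport chain were among the genes that stood lower with AC170222 in all 3 libraries. Cox5a (chromosome 9, 57521274-57532426, plus strand, GRCm38), a subunit of cytochrome c oxidase, was at 324, 424 and 474 CPM in saline and at 172, 137 and 174 with AC170222. The means were 407 ± 76.2 and 161 ± 20.8 CPM (SD, n = 3), and the log2 difference was -1.33 ± 0.28 (SE; 95% interval -1.99 to -0.67; edgeR unadjusted p = 0.0019, adjusted p = 0.999). Cyc1, the cytochrome c1 of complex III (chromosome 15, 76343523-76346260), was at 476, 630 and 618 CPM in saline and at 265, 233 and 347 with AC170222. Its log2 difference was -1.02 ± 0.28 (unadjusted p = 0.0077). By the rule that chose them, the groups overlapped in neither gene. In both, the lowest saline value exceeded the highest AC170222 value by more than the spread within the AC170222 group.

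In input RNA the 2 genes differed little. Cox5a stood at 262, 271 and 345 CPM in saline and at 357, 259 and 257 with AC170222, a log2 difference of -0.01, and Cyc1 input differed by -0.10 on the same scale. The AC170222 effect on IP relative to input, as a log2 ratio, was -1.36 ± 0.31 for Cox5a (unadjusted p = 0.00028, adjusted p = 0.167) and -0.96 ± 0.25 for Cyc1 (unadjusted p = 0.0010, adjusted p = 0.271). That edgeR fit held no block for the sample that gave both input and IP. The 6 other drug-treated IP libraries were also read for the 2 genes. Cox5a was at 319, 453 and 422 CPM with AC3174 and at 340, 400.5 and 379 with the combination, so the 3 AC170222 libraries were the lowest of the 12. AC170222 against AC3174 gave Cox5a a log2 difference of -1.31 ± 0.24 (unadjusted p = 0.00024, adjusted p = 0.946) and against the combination -1.21 ± 0.24 (unadjusted p = 0.00043, adjusted p = 1). For Cyc1 the same 2 contrasts gave -0.89 ± 0.21 (unadjusted p = 0.0017) and -1.01 ± 0.22 (unadjusted p = 0.00069). These contrasts share the AC170222 libraries with each other and with the saline contrast. Cox5a and Cyc1 were chosen for low values in those same libraries. Neither the ratio to input nor these contrasts are therefore an independent reading. Over all 15815 genes tested, edgeR called 0 (0%) in either, with 4.49% and 2.68% at an unadjusted p under 0.05.

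**Figure D1:**
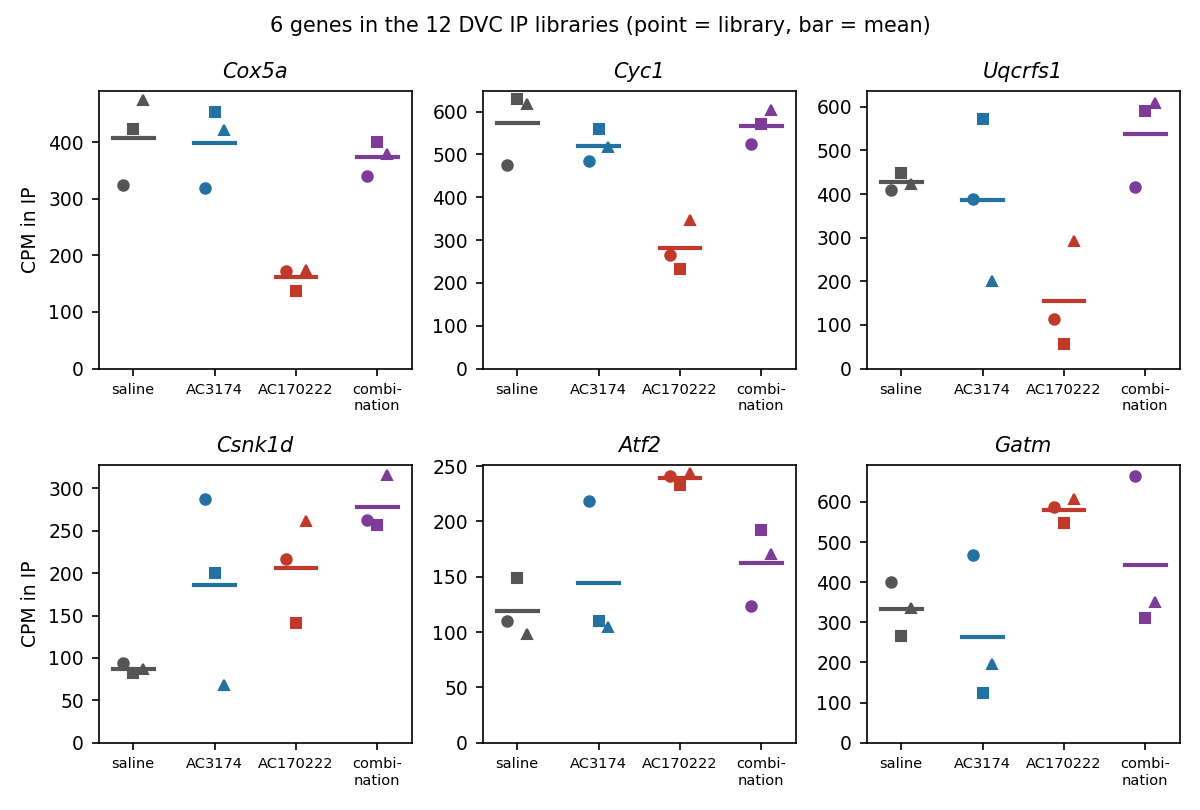
IP level in CPM (linear axis from 0) of 6 genes in the 12 DVC IP libraries, by treatment. Points are libraries (circle, square and triangle for replicates 1, 2 and 3) and bars are group means. Cox5a and Cyc1 were lowest in the 3 AC170222 libraries, while Csnk1d reached 256 to 316 CPM in the combination.

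Uqcrfs1, the Rieske iron-sulfur protein of complex III, was at 409, 448 and 424 CPM in saline and at 113, 57.2 and 293 with AC170222 (log2 -1.46 ± 0.56, unadjusted p = 0.034). With AC3174 it was at 388, 572 and 201 CPM, so that AC170222 3 was not among the 3 lowest of the 12 libraries. Ndufab1, the mitochondrial acyl carrier protein that also sits in complex I, was at 415, 408 and 557 CPM in saline and at 294, 325 and 256 with AC170222 (log2 -0.65 ± 0.27, unadjusted p = 0.043). The groups did not overlap in either gene. Of the 90 nuclear-encoded respiratory chain genes listed, 81 were in the fit. None was called, and 10 had a positive and 71 a negative difference. The groups did not overlap for 9 genes, all lower, and for 0 higher, against 4.30% and 4.76% of all genes tested. Besides the 4 above, the 9 were Ndufa2, Ndufs7, Ndufv2, Ndufb4c and Uqcrh. By complex, the median log2 was -0.28 over 38 genes of complex I, -0.09 over 4 of complex II (2 positive and 2 negative), -0.60 over 9 of complex III, -0.36 over 13 of complex IV and -0.24 over 17 of the ATP synthase.

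The list as a whole did not keep this direction in every library. Its median log2 was -0.30, against -0.08 over all 9214 genes, and it was -0.02 without AC170222 3 and 0.07 within library set 1 (saline 1 and 2 against AC170222 1 and 2, a comparison chosen after seeing the data). The summed respiratory chain level was 56950 to 62541 CPM in 5 libraries and 29149 in AC170222 3. Within set 1 Cox5a, Cyc1 and Uqcrfs1 kept log2 differences of -1.28, -1.15 and -2.33. Ndufab1 was at -0.42 there. The 85 cytosolic ribosomal protein genes in the fit gave 8 positive differences and a median of -0.42 that was -0.09 without saline 3 and 0.18 within set 1. Their sum was 6290 CPM in AC170222 3, 18563 in saline 3 and 10574 to 12588 in the rest. The S6 gene itself, Rps6, was at 154, 185 and 243 CPM in saline and at 159, 164 and 73.0 with AC170222.

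Levels also varied with transcript length, and did so in the same 2 libraries. Genes at a mean of at least 10 CPM were sorted by their longest GENCODE transcript, and each library was read as its deviation from the gene's mean of 6 in log2(CPM + 1). For 370 genes of up to 1000 bases the median deviation was 0.56 in saline 3 and -0.66 in AC170222 3, and 0.03 to 0.13 in the other 4. For 2687 genes of over 4000 bases it was -0.11 in saline 3 and 0.46 in AC170222 3. The median log2 difference between the groups ran from -0.38 in the shortest class to 0.10 in the longest, and within set 1 from 0.05 to -0.05. The part of this length gradient in the list medians was not tested. The named genes had median lengths of 4097 bases among the 12 higher and 3929 among the 12 lower, against 3334 over the 7201 genes used.

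**Figure D2:**
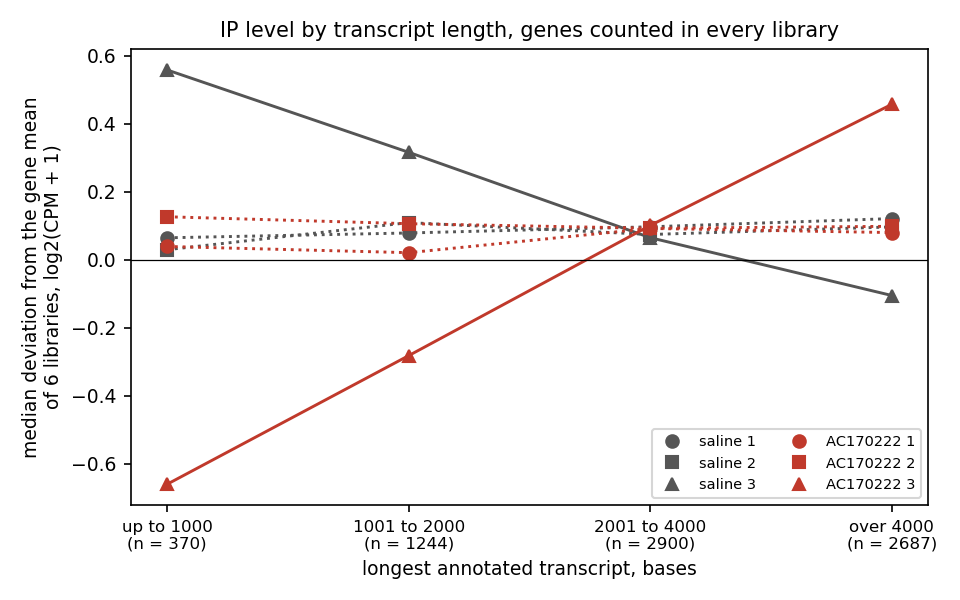
Median deviation of each IP library from the gene's 6-library mean, in log2(CPM + 1), for 4 classes of longest transcript (n, genes per class). Grey lines are saline and red lines AC170222. Saline 3 and AC170222 3 (solid lines) run in opposite directions with length, and the other 4 (dotted) stay near one another.

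Other genes that stood lower had varied roles. Clta, a clathrin light chain of endocytic vesicles, was at 320, 422 and 334 CPM in saline and at 198, 117 and 177 with AC170222 (log2 -1.12 ± 0.32, unadjusted p = 0.0090), with an input difference of 0.16. Fez2, a kinesin-binding protein of axonal transport, was at 286, 255 and 302 CPM against 151, 113 and 165 (log2 -0.96 ± 0.29, unadjusted p = 0.012). It was similarly low with the combination, at 124, 122 and 180 CPM. Another 6 of the 12 were Zcchc24, the Mediator subunit gene Med23, Dennd4a, the protein kinase gene Prkx, Lrrfip1 and the phosphoinositide phosphatase gene Inpp5e, with log2 differences from -3.66 to -1.55. All 12 kept their sign in each of the 18 other settings run. They were chosen for groups that do not overlap in these same libraries, so a change of sign was hardly possible.

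Of the 12 named genes that stood higher, 3 had saline values near 0. Gpr107, a Golgi membrane protein, had 32, 2 and 5 counts in saline and 2606, 744 and 4756 with AC170222 (0.203, 0.0179 and 0.0256 against 19.9, 5.38 and 40.4 CPM), though its input was 9.75 to 29.3 CPM in all 6. Zfyve28 and the centrosomal gene Cep41 had the same pattern, with saline values of 1.11 CPM or less and AC170222 values of 14.4 to 42.7. Pfkfb2, the enzyme that makes and breaks the glycolysis activator fructose bisphosphate, had more counts in saline. It stood at 6.31, 11.1 and 7.71 CPM in saline (994 to 1508 counts) and at 77.7, 39.6 and 76.9 with AC170222 (log2 2.96 ± 0.66, unadjusted p = 0.0025). Its input was 28.3 to 46.0 CPM in all 6 libraries, with a difference of 0.22. Pfkfb2 also stood at 18.0, 45.6 and 0.0176 CPM with AC3174, and at 33.0, 60.1 and 30.0 with the combination.

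Csnk1d, casein kinase 1 delta of the circadian clock, was at 93.7, 82.0 and 87.0 CPM in saline and at 217, 141 and 262 with AC170222 (log2 1.25 ± 0.35, unadjusted p = 0.0088). Atf2, a bZIP factor that binds cAMP response elements, was at 110.1, 149 and 98.5 CPM in saline and at 241, 233 and 244 with AC170222 (log2 1.01 ± 0.31, unadjusted p = 0.012). Gatm, the first enzyme of creatine synthesis, was at 400, 266 and 335 CPM in saline and at 586, 548 and 607 with AC170222 (log2 0.81 ± 0.27, unadjusted p = 0.018). The AC170222 values of Atf2 and Gatm were closer to one another than the saline values were. Akt2 (insulin signalling), Ambra1 (autophagy), Blmh (a cysteine protease), Tbpl1 (a TBP-like factor) and Zfp24 had log2 differences of 1.13 to 2.27. By the rule that chose the named genes, the groups overlapped in none of them. DESeq2 gave an adjusted p under 0.05 to 21 of the 24 named genes, all but Tbpl1, Gatm and Akt2, and none of the 24 passed in edgeR. The 24 were chosen for small p and no overlap in these same libraries, so the DESeq2 values are no independent reading.

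**Figure D3:**
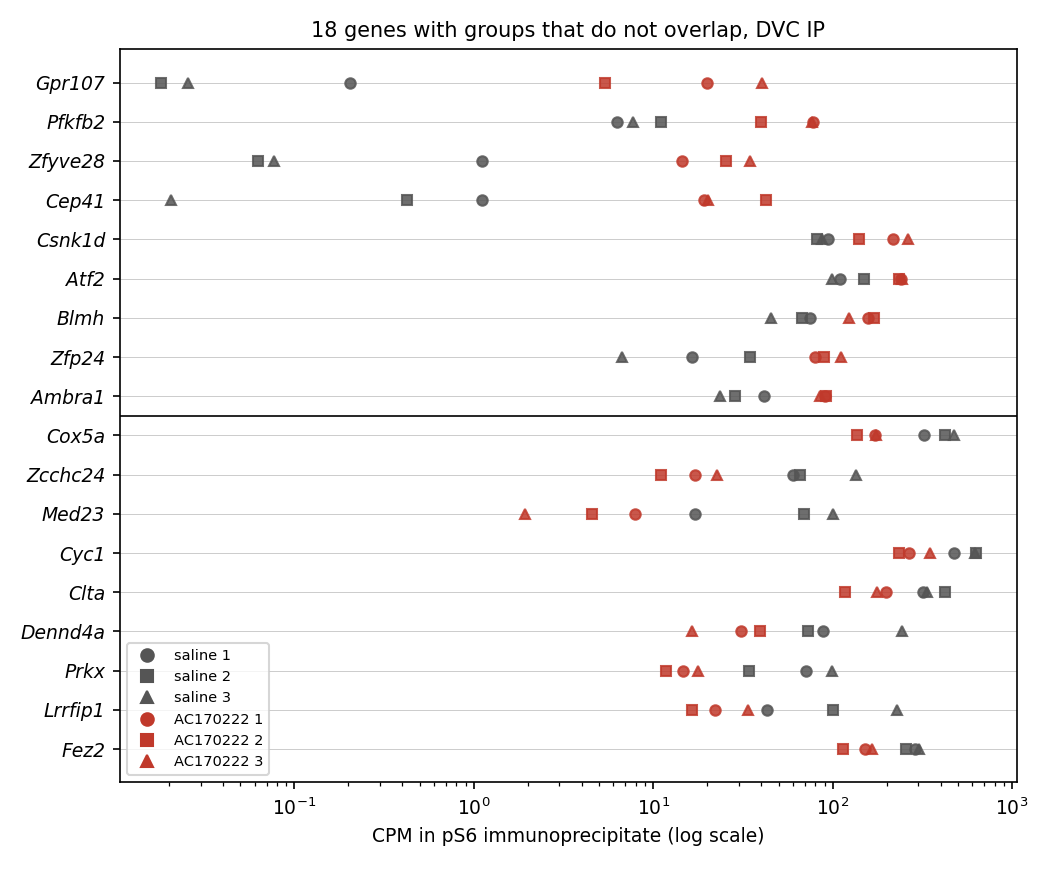
IP level (CPM, log axis) of the 9 genes with the smallest edgeR p in each direction among those counted in every library, at a mean of at least 10 CPM and with groups that do not overlap. Grey points are saline, red points AC170222, and symbols mark replicates 1 to 3. Gpr107, Zfyve28 and Cep41 had saline values of 1.11 CPM or less, and Cox5a, Cyc1, Clta and Fez2 were the most abundant of the lower genes.

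Next was the pathway that phosphorylates S6. Of 33 mTOR and S6 kinase pathway genes, 29 were in the fit, 14 positive and 15 negative, with a median log2 of -0.03. Non-overlapping values were found for 4 higher genes (Akt2, Eif4g1, Pdpk1 and Tsc2) and 1 lower gene, against 4.76% and 4.30% of all genes, and none was called. Eif4g1, the scaffold of cap-dependent initiation, was at 139, 168 and 46.4 CPM in saline and at 229, 239 and 304 with AC170222 (log2 1.13 ± 0.49, unadjusted p = 0.055). Tsc2, the brake on mTOR, had 1 count in saline 3 (25.6, 93.4 and 0.00511 CPM), so that its separation from 108, 94.0 and 146 CPM rested on 1 close value. The lower gene, Lamtor5, a subunit of the Ragulator complex that docks mTOR on lysosomes, was at 465, 301 and 485 CPM in saline and at 255, 270 and 192 with AC170222 (log2 -0.79 ± 0.31, unadjusted p = 0.034).

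In cAMP and MAP kinase signalling, 24 of 29 genes were in the fit, 14 positive and 10 negative, with a median of 0.19. The non-overlapping genes were Prkacb, Pde4a, Pde10a and Crtc1 (higher) and Rps6ka2 (lower), 5 of 24 against 9.06% of all genes, and none was called. Pde10a had 1627, 1344 and 3 counts in saline 1, 2 and 3. Prkacb, a catalytic subunit of protein kinase A, was at 540, 541 and 375 CPM in saline and at 818, 732 and 729 with AC170222 (log2 0.65 ± 0.27, unadjusted p = 0.045). Its input also stood higher, with means of 665 ± 24.3 and 907 ± 108 CPM (log2 0.45 ± 0.12, unadjusted p = 0.0027, adjusted p = 1). Pde4a, a phosphodiesterase that degrades cAMP, was at 43.1, 77.6 and 105 CPM in saline and at 126, 140 and 170 with AC170222 (log2 0.96 ± 0.43, unadjusted p = 0.057). Its input stood slightly the other way, at -0.20. Of 19 calcium and Gq signalling genes in the fit, 7 were positive and 12 negative, and the calcineurin gene Ppp3ca was the one without overlap (199, 209 and 215 CPM against 229, 301 and 240), where 9.06% of all genes had none.

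Of 12 unfolded protein and stress response genes in the fit, 3 were positive and 9 negative, with a median of -0.62 (-0.23 without saline 3 and -1.19 without AC170222 3). The list holds endoplasmic reticulum chaperones and stress-response factors. None was called, and the groups did not overlap for 2 members, both lower, against 4.30% of all genes. Hspa5, Hsp90b1, Pdia6 and Canx, other folding factors of that compartment, overlapped between the groups, and Canx had a log2 difference of 0.01. Pdia3, a disulfide isomerase, was at 57.3, 47.8 and 74.6 CPM in saline and at 21.1, 11.8 and 27.7 with AC170222 (log2 -1.56 ± 0.61, unadjusted p = 0.036). Calr, calreticulin, its partner in glycoprotein folding, was at 49.8, 49.4 and 40.3 CPM in saline and at 17.7, 22.3 and 22.4 with AC170222 (log2 -1.16 ± 0.58, unadjusted p = 0.085). Both were separate between the groups, and their inputs differed by 0.15 and -0.10. The 15 neuronal markers had a median of 0.02 (-0.19 without saline 3) and the 24 synaptic vesicle genes a median of 0.03 (-0.06 without saline 3), beside -0.08 and -0.01 over all genes. None of 12 microglial genes was counted in every library, and Cx3cr1 was at 0 in all 6. The summed microglial level was 21.2 to 102 CPM in saline and 1.54 to 16.7 with AC170222, and its part in these results was not tested.

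**Figure D4:**
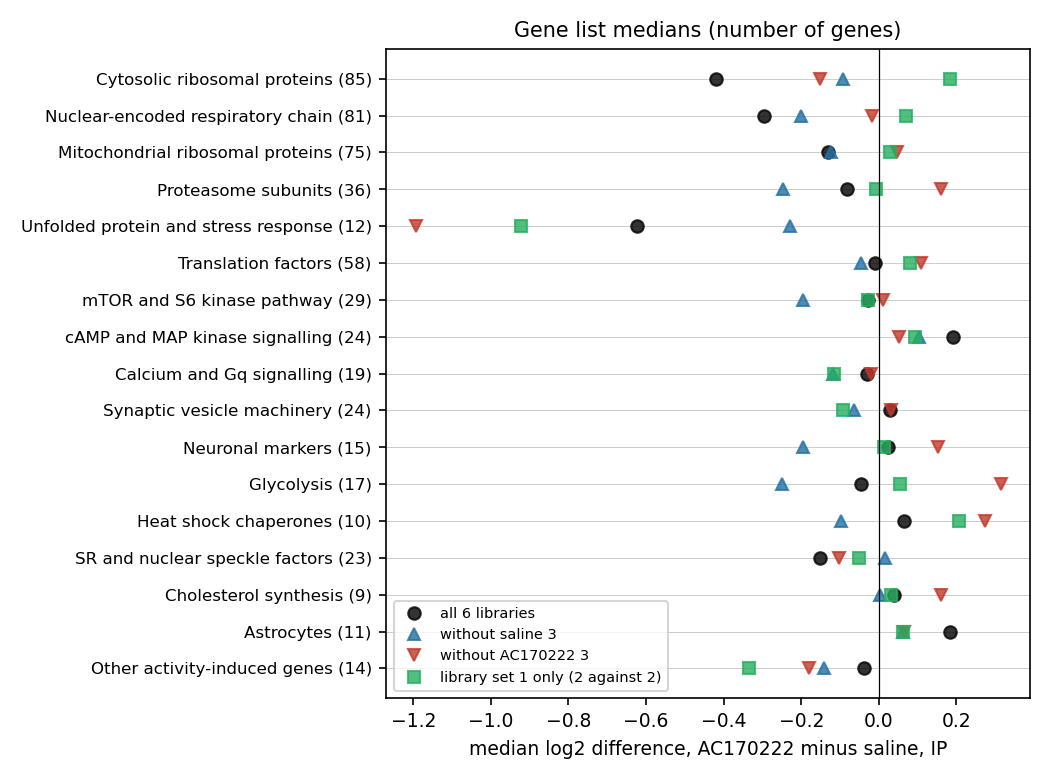
Median log2 difference, AC170222 minus saline, in the IP for 17 gene lists (genes in the fit in brackets), over all 6 libraries, without saline 3, without AC170222 3, and within library set 1. The ribosomal and respiratory chain medians move to 0.18 and 0.07 within set 1, while the unfolded protein response median stays negative in the 4 settings.

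The receptors through which the drug and the gut peptides act were too sparse to compare. None of 7 CCK and GLP-1 peptide and receptor genes was counted in every library. Cckar, the CCK receptor of vagal afferents and hindbrain neurons, had 3255 counts in saline 2 and 1346 in AC170222 2, and 0 in the other 4 libraries. Cckbr was at 0, 14.0 and 0 CPM in saline and at 0, 0.159 and 6.33 with AC170222. Cck itself was at 13.8, 5.29 and 0 CPM in saline and at 3.42, 6.08 and 4.98 with AC170222. Of 30 appetite receptor genes, 5 were in the fit (Ramp1, Npy1r, Htr2c, Mchr1 and Lepr). Lepr, the leptin receptor, and Npy1r had unadjusted p of 0.046 and 0.0498, but Lepr had 2 to 244 counts per library, and Npy1r had 1100 in AC170222 1 and 6 to 23 in the others. In input, Lepr stood at 0.707, 0.340 and 0.381 CPM in saline and at 3.08, 4.86 and 4.99 with AC170222 (log2 3.17 ± 1.27, edgeR unadjusted p = 0.029, adjusted p = 1), the opposite direction to the IP. The cholinergic gene Chat and the gene Prph, both marks of vagal motor neurons, overlapped between the groups (Chat 231, 618 and 61.6 CPM against 503, 393 and 207).

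Activity-induced genes were read in 3 lists of 55 genes, 17 of which were in the fit. None was called by edgeR, and 1 of the 17 had groups without overlap, where 9.06% of all genes did. It was Dusp4, a MAP kinase phosphatase (0.229, 5.72 and 0.521 CPM in saline, 0.0382, 0.0939 and 0.111 with AC170222; log2 -4.73 ± 1.47, edgeR unadjusted p = 0.014). Dusp4 was called by DESeq2 (adjusted p = 0.014), but it had only 36, 638 and 102 counts in saline and 5, 13 and 13 with AC170222. Of the AP-1 factors only Jun and Jund were in the fit, and of the Nr4a and Egr factors only Egr1. Egr1 was at 16.2, 4.70 and 53.6 CPM in saline and at 15.3, 30.6 and 29.6 with AC170222. Jun was at 5.54, 32.4 and 39.6 CPM against 11.8, 9.18 and 36.9. Both overlapped.

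The activity genes that differed most were those left out of that reading by their zeros. Nr4a1, an orphan nuclear receptor induced early after stimulation (chromosome 15, 101254269-101274795), had 0 counts in all 3 saline libraries and 1492, 3629 and 2569 with AC170222 (11.4, 26.2 and 21.8 CPM). Against a floor of 3 counts over the saline group this is 3070-fold higher. That floor covers counting only and not loss of transcripts from a library, so the fold is no lower bound. Its input stood at 16.2, 13.6 and 10.0 CPM in saline and at 20.6, 6.65 and 12.4 with AC170222, so the groups overlapped in total RNA. Nr4a1 was counted in all 6 IP libraries of the other drugs as well, at 6.16 to 18.8 CPM. Fosb, another Fos family subunit of AP-1, was at 0 in saline and at 12.5, 12.2 and 0.306 CPM with AC170222. Fos was at 36.8, 71.7 and 0 CPM in saline and at 81.6, 109.6 and 55.5 with AC170222, which overlap. In input, Fos stood at 19.6, 23.6 and 14.2 CPM in saline and at 48.1, 34.4 and 40.8 with AC170222 (means 19.1 ± 4.71 and 41.1 ± 6.85; log2 1.10 ± 0.30, edgeR unadjusted p = 0.0032, adjusted p = 1).

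**Figure D5:**
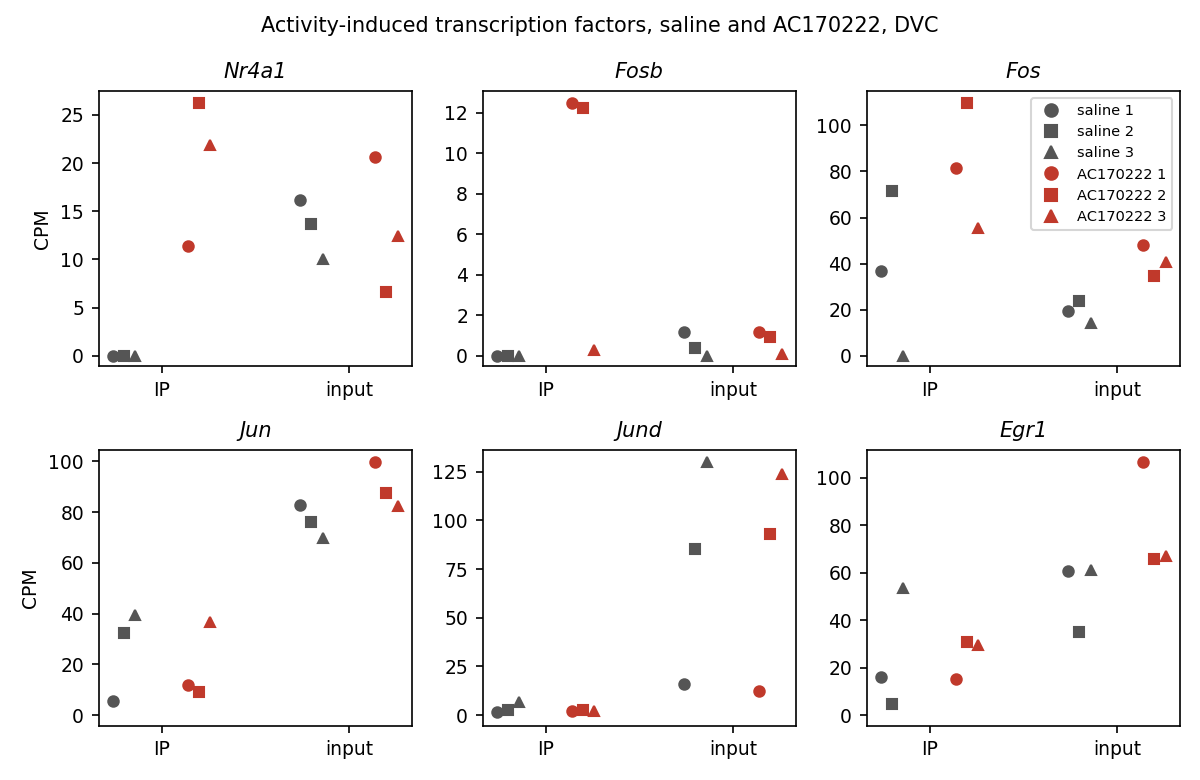
CPM of 6 activity-induced transcription factor genes in IP (left of each panel) and input (right), linear axes. Grey points are saline, red points AC170222, and symbols mark replicates. Nr4a1 and Fosb were at 0 in the 3 saline IP libraries, Fosb was near 0 in AC170222 3, and Fos input was higher in all 3 AC170222 libraries than in saline.

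These 3 genes are known targets of CREB, the factor that protein kinase A and calcium kinases activate, so their upstream sequences are shown for its binding letters. Each is the 250 bases before the RefSeq start on GRCm38.p6, read along the gene from 5′ to 3′. Capitals mark the short CREB motif TGACG on either strand, and the longer TGCGTCA on either strand, which holds the short motif on the opposite strand and was chosen after reading the Nr4a1 sequence. Nr4a1 is at chr15:101266596-101266845 (plus strand), Fos at chr12:85473640-85473889 (plus strand) and Fosb at chr7:19310046-19310295 (minus strand).
Nr4a1: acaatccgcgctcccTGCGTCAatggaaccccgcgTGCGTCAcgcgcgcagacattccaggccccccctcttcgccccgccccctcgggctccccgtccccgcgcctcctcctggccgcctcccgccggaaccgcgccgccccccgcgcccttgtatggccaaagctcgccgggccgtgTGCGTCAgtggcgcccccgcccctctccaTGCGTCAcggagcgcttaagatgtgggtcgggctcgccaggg
Fos: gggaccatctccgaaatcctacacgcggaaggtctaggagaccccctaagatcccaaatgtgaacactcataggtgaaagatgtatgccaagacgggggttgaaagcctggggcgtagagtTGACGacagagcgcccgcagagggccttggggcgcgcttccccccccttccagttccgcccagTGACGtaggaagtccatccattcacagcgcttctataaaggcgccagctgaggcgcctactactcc
Fosb: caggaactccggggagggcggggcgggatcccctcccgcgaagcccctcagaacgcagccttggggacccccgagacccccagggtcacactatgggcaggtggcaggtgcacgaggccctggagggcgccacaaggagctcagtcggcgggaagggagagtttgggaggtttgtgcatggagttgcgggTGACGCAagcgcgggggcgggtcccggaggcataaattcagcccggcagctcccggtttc
Nr4a1 held 4 matches to TGCGTCA, Fosb held 1, and Fos held 2 to TGACG alone. The full palindrome TGACGTCA was in none of the 3 windows. Of 32851 promoter windows of this length in the table, 17.8% held TGACG, 1.75% TGCGTCA and 1.55% TGACGTCA.

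Nr4a1 was 1 of 230 genes with 0 counts in all saline IP libraries and counts in all 3 AC170222 libraries, while 36 genes had the reverse. Of the 230, 128 were counted in all 6 inputs. Those with the highest lowest AC170222 value were Htr1a, Qpctl, Bmper, Mlh3, Trip10 and Nr4a1. Htr1a, the inhibitory serotonin receptor, was at 21.7, 28.5 and 33.1 CPM with AC170222, 4298-fold above the floor, and its input was 12.5 to 22.8 CPM in all 6 libraries. With AC3174 it was at 46.5, 1.66 and 0 CPM. Among the 36 genes at 0 with AC170222, Mapkapk3, a kinase downstream of p38, was at 16.2, 13.4 and 24.0 CPM in saline, 2308-fold above the floor, and Dsel at 10.4, 24.0 and 25.6. Saline 3 had fewer genes counted than the other 5, and 1436 genes were at 0 in it and counted in all of the others, against 127 to 403 for the others. The part of that loss in these 2 counts was not tested. Leaving out saline 3 gave 343 and 133, where fewer libraries had to be at 0 or counted.

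Over all 15815 genes in the 12 DVC IP libraries, edgeR called 0 (0%), with 830 (5.25%) at an unadjusted p under 0.05, 680 of them higher. DESeq2 called 863 (713 higher) and limma-voom 20 (19 higher). Of the 230 genes at 0 in all saline libraries, 212 passed the filter and 200 had an unadjusted edgeR p under 0.05. They passed it only through libraries of the other groups. Of the 36 genes at 0 with AC170222, 8 passed and 7 had such a p. The part of these zeros in the excess of higher genes was not tested. Nr4a1 had an edgeR adjusted p of 0.388, and of 1.9e-20 in DESeq2 and 0.0029 in limma-voom. Nr4a1 was singled out for its 0 counts in all saline libraries. These p values restate those zeros and are no independent reading. In input, edgeR called 0 of 17477 genes (0%), with 731 (4.18%) at an unadjusted p under 0.05 and 218 called by DESeq2. Of the 439 genes that stood higher without overlap in the IP, 253 had an input difference of the same sign, and of the 396 lower, 213. Over all 17477 input genes the median log2 difference was -0.0125. The share of each sign over all genes is not given, so these counts are not read as agreement between IP and input. The AC170222 effect on the IP-to-input ratio was called for 5 of 18465 genes (0.0271%, against 9.02% at an unadjusted p under 0.05), all higher: Nr4a1, Mlh3, Rfx7, Hgh1 and Lrp8os3. Input and IP came from the same samples, and with each sample as a block edgeR called 0. The AC170222 effect in the DVC IP and in that of the mediobasal hypothalamus differed for 0 of 17230 genes (0%), with 5.89% at an unadjusted p under 0.05.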

How the data were processed

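RNA was amplified with SMART-Seq v4 and made into Nextera XT libraries, per the labels' protocols, which keep no strand and use no molecular identifiers. Amplified copies are counted as reads, and floors cover counting error only. Intervals come from the edgeR fit and cover the spread between these libraries. Overlapping or antisense genes cannot be told apart. The genome build GRCm38, HTSeq (0.6.1p1) and TopHat2 (2.0.11) are named, without roles, per the submitters' processing notes. The deposited values are raw counts per gene made by the authors for 38293 Ensembl genes, 36345 with a GENCODE M21 symbol.

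Counts of the 6 libraries were tested with edgeR 4.0.16 in R 4.3.3 (TMM, filterByExpr, quasi-likelihood F test, 2-sided, Benjamini-Hochberg) on genes with at least 1 count in each library. All genes were tested in the 12 DVC IP libraries, the 12 inputs, the 24 DVC libraries (ratio) and the 24 IP libraries of 2 regions. DESeq2 1.42.0 and limma-voom (limma 3.58.1) were alternatives. CPM used TMM-scaled totals of the 12 IP or 12 input libraries. The scripts were tested on simulated data.

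Named genes had a mean of at least 10 CPM, no overlap between groups and the 12 smallest p in each direction; of list members, those of smallest p or highest level were named. Genes at 0 in one group were ranked by their lowest value in the other, 6 each way. Other list members named (those without overlap, Rps6, Calr, Chat, Prph, and genes for their input) were chosen after their values were seen. Gene lists (38) and members were chosen with earlier results of these data known. Replicates with the same number had deviations correlated at 0.046, 0.019 and 0.081, so numbers were not taken to pair libraries. Library sets are pairs of plate columns, which the labels do not call batches. Alternatives covered tools, scaling, filters, the replicate block and leaving out each library. Some genes that these rules select are not reported here.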

Additional observations from a re-analysis of the deposited data

Results flagged for a closer look

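In 5 genes the AC170222 effect differed between the IP and the input by edgeR's test of the IP-to-input ratio over all DVC libraries (0.0271% of 18465 genes). Nr4a1 had a fitted log2 of 14.04 ± 1.51 (adjusted p = 0.00079), Mlh3, a mismatch repair gene, 13.07 ± 1.48 (adjusted p = 0.00084) and Rfx7, a transcription factor gene, 13.10 ± 1.82 (adjusted p = 0.0090). Hgh1 had 10.78 ± 1.74 (adjusted p = 0.044) and the non-coding RNA gene Lrp8os3 10.93 ± 1.87 (adjusted p = 0.045). The 5 were at 0 in the saline IP, except for 0.00635 CPM of Lrp8os3 in saline 1, and were counted in all 3 AC170222 IP libraries, so the fitted sizes depend on the prior count and are no bounds. Rfx7 ranged from 0.504 to 19.3 CPM with AC170222. A block for each sample's own input and IP left 0 genes called.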

How the results depend on the processing

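The count of 0 called among genes counted in every library was also 0 in the edgeR and limma-voom alternatives and without each library in turn, and 78 with DESeq2. Over all genes the count was 863 with DESeq2, 20 with limma-voom and 0 to 6 without 1 library (6 without saline 1); in input DESeq2 called 218. The IP-to-input ratio gave 5 calls, 3 to 66 without 1 IP library (61 without saline 1, 66 without saline 2, 21 without AC170222 3, 3 without AC170222 2), and 0 with the replicate block on the sample shared by input and IP. The replicate block on the number, which the labels do not say pairs libraries, left 0 calls in both IP fits (234 and 546 genes had an unadjusted p under 0.05). Genes at 0 in all saline libraries went from 230 to 343 to 533 without 1 library, and in all AC170222 libraries from 36 to 75 to 133, as fewer libraries must then be at 0 or counted.

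All 24 named genes kept their sign in each setting run, which their choice for groups without overlap in the same libraries made nearly certain. Without 1 library, Jun ranged from -1.28 to 0.0103 (positive without saline 3), Jund from -1.01 to 0.0870 (positive without saline 3; 0.14 within set 1), Egr1 from -0.43 to 1.26 (-0.18 without saline 1, -0.43 without saline 2, -0.12 without AC170222 2, -0.09 without AC170222 3), Npy1r from -0.85 (without AC170222 1) to 5.54, and Chat from -0.21 (without saline 3; -0.04 without AC170222 1) to 1.35. The cause was not tested. Scaling moved the median of all genes by at most 0.02. At library totals of 108539080 to 191252522 counts, 1503 of the 9214 genes still had fewer than 10 counts in a library, 846 of them in saline 3, and low counts limit their values.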

Other observations

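In input RNA, edgeR called 0 of 17477 genes, and 731 (4.18%) had an unadjusted p under 0.05, 417 of them higher with AC170222. From the genes that stood higher there without overlap, 3 more were picked after their values were seen. Others stood higher in the same way, such as Tra2b and Srsf10 (edgeR unadjusted p = 0.015 and 0.012). The share of all input genes without overlap is not given. Ccn1, an activity-induced matricellular protein gene, was at 0 in the saline inputs and at 2.01, 2.84 and 3.94 CPM with AC170222 (unadjusted p = 4.4e-05, adjusted p = 0.772), and it was at 0 in all 6 IP libraries. Klf10, an early-response zinc finger gene, had input means of 10.4 ± 2.91 and 29.0 ± 4.26 CPM (SD, n = 3; edgeR unadjusted p = 0.017). Th, the rate-limiting enzyme of catecholamine synthesis, had input means of 39.7 ± 6.77 and 69.9 ± 20.6 CPM (SD, n = 3; edgeR unadjusted p = 0.011). In the IP the Th groups overlapped and the difference had the opposite sign. The IP means were 53.7 ± 12.2 CPM in saline and 41.5 ± 12.6 with AC170222 (log2 -0.36 ± 0.54, edgeR unadjusted p = 0.52).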
